A study of Mus musculus with 21 samples.

Results

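The 9 genes described here are 6 ubiquitin ligases or ligase subunits tied to muscle atrophy, Fbxo32, Trim63, Fbxo30, Fbxo31, Cblb and Asb2, and 3 forkhead box O (FOXO) transcription factors, Foxo1, Foxo3 and Foxo4. They were taken by symbol from the deposited expression table, where they are 9 of 53738 gene symbols. Expression was measured by RNA sequencing of bulk quadriceps from wild-type male C57/Bl6 mice aged 22 to 26 weeks, in 7 groups of 3 libraries. Sedentary mice did no exercise. Untrained mice ran on a treadmill to exhaustion and were taken right after this bout (0 h) or after 6 h or 72 h. Trained mice had lived in cages with running wheels for 12 weeks, from an age of 12 weeks, and ran the same test at the end of that period without rest before being taken at the same times. No group was trained and left without the exhaustive run, so the 12 weeks of running and the last bout cannot be told apart in trained mice set against sedentary mice. None of the 7 groups carried a transgene or received a drug.

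Replicate 1 of the untrained 0 h group and replicate 1 of the trained 0 h group had the same value for each of the 53738 symbols, which leaves 20 distinct libraries. Which of the 0 h groups this library belongs to cannot be told, so differences of members at 0 h that are described are given with and without it, and the 0 h groups were set against each other on their other 2 libraries only. Values are TPM, the share of transcripts that a gene makes up in a library, which is scaled by transcript length and so can be compared between genes. TPM keep no read depth, so no counting error can be given. The mitochondrial genome held 37.7% to 40.6% of TPM in the 0 h libraries and 40.6% to 48.0% in the other libraries. The median of all tested genes was 0.10 and 0.13 log2 units above sedentary at untrained and trained 0 h and -0.15 from trained 0 h to 6 h, shifts that median-of-ratios scaling removes, and differences in these comparisons are to be read beside them. All 9 genes had a mean of at least 1 TPM and were among the 11819 genes tested with limma. A gene was called where the adjusted p was below 0.05 and the change at least 1.5-fold, and fold changes are on the log2(TPM + 0.5) scale, which understates the change of genes near 1 TPM. The labels number the libraries of a group without tying them to animals, so p-values measure the spread between libraries.

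Muscle protein is broken down largely by the ubiquitin-proteasome system, in which an E3 ligase chooses the protein to be tagged. Fbxo32 (atrogin-1 or MAFbx) and Trim63 (MuRF1) are the ligases best known for rising in wasting muscle. FOXO factors drive transcription of both genes when they are in the nucleus, and phosphorylation by AKT downstream of insulin and IGF-1 keeps them out of it, a step that RNA levels do not show.

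The 9 genes lay at very different levels. Asb2, the substrate-binding subunit of a cullin-5 ligase that targets filamins, was the highest at a mean of 210 TPM over the 7 groups, above 97.5% of the tested genes. Trim63 followed at 89.0 TPM, Fbxo32 at 37.9 TPM, Fbxo31 at 34.8 TPM and Foxo4 at 34.8 TPM. Fbxo30, Foxo3, Cblb and Foxo1 averaged 2.59, 2.34, 2.12 and 1.64 TPM. Foxo4 thus made up 86.2% to 92.1% of the summed TPM of the 3 listed FOXO genes over the libraries, while Foxo1 was the lowest of the 9. In fold range between the highest and lowest group, on the log2 scale used for testing, Trim63 led with 2.08-fold, followed by Foxo1 (0.67 log2 units, 1.60-fold), Cblb with 1.59-fold and Asb2 with 1.57-fold. The other members ranged by 1.21-fold for Fbxo31 to 1.42-fold for Fbxo32, and the median of all tested genes was 1.32-fold.

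**Figure D1:**
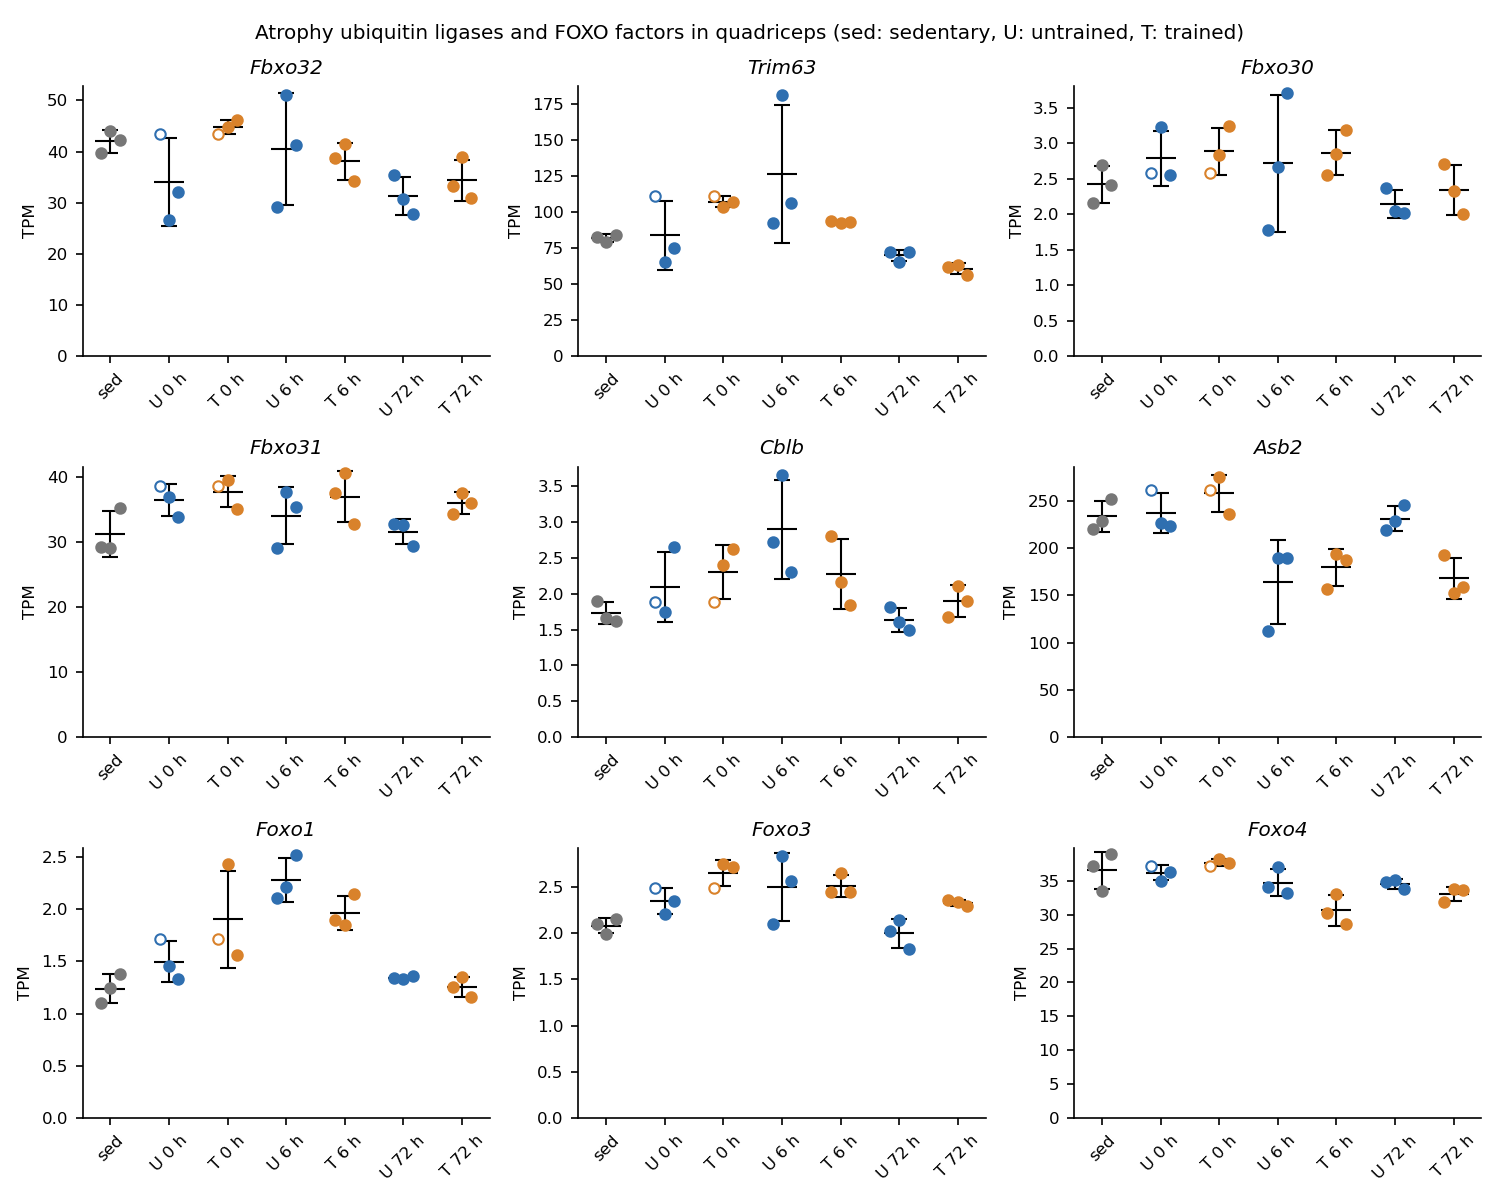
TPM of each of the 9 genes (vertical axes, each starting at 0) in every library of the 7 groups (sed, sedentary; U, untrained; T, trained). Points are libraries, bars the mean and SD of 3 libraries, and open circles mark the library that the untrained and trained 0 h groups share; Foxo1 is highest at untrained 6 h, where its 3 libraries (2.10 to 2.52 TPM) lie above all sedentary libraries (1.10 to 1.38 TPM).

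Trim63, a RING-finger ligase of the sarcomere that targets thick-filament proteins, was measured at 82.9, 79.0 and 84.0 TPM in the sedentary libraries. At untrained 6 h it was measured at 92.1, 181 and 106 TPM, and at untrained 72 h at 71.9, 65.6 and 72.5 TPM. All 3 untrained 6 h libraries were thus above every sedentary library, and replicate 2 was far above the other two. Against sedentary the difference of 0.56 log2 units (SE 0.20) did not pass the test (adjusted p = 0.0895, limma). From 6 h to 72 h in untrained muscle Trim63 fell by 0.79 on the log2 scale (SE 0.20, adjusted p = 0.0172), or 1.72-fold. This call was lost without untrained 6 h replicate 2, where the change was -0.50 with an adjusted p of 0.0577, and without untrained 72 h replicate 2, where it was -0.74 with an adjusted p of 0.0706.

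In trained muscle Trim63 was at 111 TPM in the shared library and at 103 and 107 TPM in the other 0 h libraries. It was between 92.6 and 93.4 TPM at 6 h. At 72 h it was at 61.6, 63.5 and 56.4 TPM, the lowest of the 7 groups, and no 72 h library overlapped any library of another group. None of these differences passed: 0.38 log2 units at 0 h against sedentary (adjusted p = 0.216; 0.36 and 0.286 without the shared library), 0.18 at 6 h (adjusted p = 0.618), -0.44 at 72 h (adjusted p = 0.407) and -0.62 from 6 h to 72 h (adjusted p = 0.0598). In untrained muscle the level at 0 h depended on the shared library, the only one of the 3 above the sedentary libraries. With it, the mean was 83.7 ± 24.1 TPM (SD, n = 3) and the difference from 0 h to 6 h 0.57 log2 units (adjusted p = 0.0726). Without it, the 0 h libraries held 65.1 and 75.1 TPM, and the rise to 6 h was 0.79 log2 units and called (adjusted p = 0.0228).

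Fbxo32, the F-box subunit of an SCF ligase that targets MyoD and eIF3-f, did not pass the test in any of the 13 comparisons. Its sedentary libraries held 39.6, 44.1 and 42.2 TPM, and the untrained 6 h libraries scattered around them at 29.1, 51.1 and 41.3 TPM. At 72 h the untrained libraries held 35.3, 30.8 and 27.8 TPM and the trained libraries 33.3, 38.8 and 30.9 TPM. All 6 libraries at 72 h were below every sedentary library, with differences of -0.42 log2 units (adjusted p = 0.843) in untrained and -0.29 (adjusted p = 0.571) in trained muscle. The kit does not mark strand, and the antisense noncoding gene Gm15943 lies within the Fbxo32 locus with a mean of 5.86 TPM, so reads of the pair cannot be told apart there. The same limit holds for antisense genes overlapping Foxo1 (Gm20402, 0.497 TPM), Asb2 (Gm15523, 0.856 TPM) and Fbxo30 (4930432B10Rik, 0.05 TPM). Foxo1 also overlaps Gm38034 on its own strand (0.209 TPM). Cblb overlaps an antisense gene at 0 TPM, and the genes overlapping Foxo3 had no values. The level of Trim63 relative to Fbxo32 was 1.96 ± 0.153 (SD, n = 3) in sedentary muscle, 3.09 ± 0.496 at untrained 6 h and 1.77 ± 0.118 at trained 72 h. All untrained 6 h libraries had a higher ratio (2.56 to 3.55) than all sedentary libraries (1.79 to 2.09). So did all trained 0 h (2.30 to 2.55), untrained 0 h (2.33 to 2.55) and trained 6 h libraries (2.23 to 2.73), the shared library being the highest of both 0 h groups.

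Asb2 was lower at 6 h in both untrained and trained muscle. The sedentary libraries held 220, 229 and 252 TPM, the untrained 6 h libraries 112, 190 and 190 TPM, and the trained 6 h libraries 157, 194 and 188 TPM. Neither 6 h group overlapped the sedentary libraries. In untrained muscle the difference was -0.55 log2 units (SE 0.16, adjusted p = 0.0414), a 1.46-fold lower level that stayed under the 1.5-fold limit. In trained muscle it was -0.38 log2 units (adjusted p = 0.151). Without untrained 6 h replicate 1, the library at 112 TPM, the untrained difference was -0.30 log2 units with an adjusted p of 0.110. Without any 1 of the sedentary libraries the adjusted p was 0.0708 to 0.125.

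Asb2 differed most between untrained and trained muscle in the level it had at 72 h. The untrained libraries were back at 219, 229 and 246 TPM, a difference of 0.54 log2 units from 6 h (adjusted p = 0.0479), which was 0.28 log2 units (adjusted p = 0.138) without untrained 6 h replicate 1 and had an adjusted p of 0.0846 to 0.139 without any 1 of the untrained 72 h libraries. The trained libraries held 192, 153 and 159 TPM, below all untrained 72 h and all sedentary libraries. The trained level was thus still 0.48 log2 units under the sedentary one, and 0.47 under the untrained one at the same time. Neither difference passed the test across all genes (adjusted p = 0.237 and 0.192). At 0 h Asb2 was at 262 TPM in the shared library, at 227 and 224 TPM in the other untrained libraries and at 275 and 236 TPM in the other trained libraries. From 0 h to 6 h it was lower by 0.57 log2 units in untrained (adjusted p = 0.0298) and 0.52 in trained muscle (adjusted p = 0.0267). Without the shared library these became 0.50 (adjusted p = 0.132) and 0.51 (adjusted p = 0.0748). All tested genes had medians of -0.09 and -0.15 log2 units in these comparisons. Over the alternatives the Asb2 difference was -0.70 to -0.32 in untrained (limma adjusted p up to 0.267) and -0.59 to -0.31 in trained muscle (up to 0.180). As a share of the summed TPM of the 6 ligases, Asb2 went from 59.4 ± 0.938% (SD, n = 3) in sedentary to 44.3 ± 5.10% in untrained 6 h muscle.

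Cblb, a RING-finger ligase known to promote degradation of the insulin receptor substrate IRS-1 in unloaded muscle, was measured at 1.90, 1.66 and 1.62 TPM in sedentary libraries. The untrained 6 h libraries held 2.72, 3.66 and 2.31 TPM, all above the sedentary ones. Cblb rose by 0.59 log2 units (SE 0.16, adjusted p = 0.0293), or 1.51-fold, just past the fold limit. The call was lost without sedentary replicate 2 (adjusted p = 0.0882), sedentary replicate 3 (0.0853) or untrained 6 h replicate 2 (0.140, with a change of 0.44). At untrained 72 h it was at 1.81, 1.60 and 1.49 TPM again, a fall of 0.65 on the log2 scale from 6 h (SE 0.16, adjusted p = 0.0171). That fall no longer passed without untrained 6 h replicate 2 (-0.50, adjusted p = 0.0817), untrained 72 h replicate 2 (-0.65, 0.0580) or untrained 72 h replicate 3 (-0.60, 0.0686). In trained muscle Cblb was between 1.85 and 2.80 TPM at 6 h, overlapping the sedentary libraries, with a difference of 0.30 log2 units (adjusted p = 0.268).

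Fbxo31 and Fbxo30, both F-box subunits of SCF ligases, moved little. Fbxo31 stayed between 29.0 and 40.5 TPM in all libraries, and its largest difference from sedentary was 0.27 log2 units at trained 0 h (adjusted p = 0.103; 0.26 and 0.228 without the shared library). Fbxo30, known as MUSA1 in denervated muscle, ranged from 1.77 to 3.71 TPM, and both of these extremes came from the untrained 6 h group. Neither gene passed the test in any of the 13 comparisons.

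Foxo1, the FOXO factor known to rise with fasting in muscle, had the lowest adjusted p of the 9 genes. Its sedentary libraries held 1.10, 1.25 and 1.38 TPM, the untrained 6 h libraries 2.10, 2.21 and 2.52 TPM, and the untrained 72 h libraries 1.34, 1.33 and 1.36 TPM. No untrained 6 h library overlapped a sedentary or 72 h library. Foxo1 rose by 0.67 log2 units at untrained 6 h against sedentary (SE 0.12, adjusted p = 0.00136), or 1.60-fold, and remained called without any single library (0.61 to 0.73 log2 units). From 6 h to 72 h it fell by 0.59 on the log2 scale (SE 0.12, adjusted p = 0.00425), at the edge of the fold limit. Without untrained 6 h replicate 3 or untrained 72 h replicate 2 this fall was -0.53 and -0.58 and so missed the 1.5-fold limit, at adjusted p of 0.0224 and 0.0189. With a pseudocount of 1 TPM both changes also missed it, at 0.55 and -0.48 log2 units.

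Foxo1 was higher in trained muscle as well, at less than 1.5-fold on the log2(TPM + 0.5) scale. In TPM the means were 1.97 at trained 6 h and 1.90 at trained 0 h, beside 1.24 in sedentary muscle. The trained 6 h libraries held 1.89, 1.85 and 2.15 TPM, above all sedentary libraries, a difference of 0.50 log2 units (SE 0.12, adjusted p = 0.0114). The adjusted p was 0.0555 without sedentary replicate 1 and 0.0532 without trained 6 h replicate 3. Over the alternatives this 6 h difference was 0.40 to 0.63 log2 units, the highest past the 1.5-fold limit. At trained 0 h it was at 1.71 TPM in the shared library and at 2.44 and 1.56 TPM in the others, 0.45 log2 units above sedentary (adjusted p = 0.0235; 0.50 and 0.0336 without the shared library). Under median-of-ratios scaling this 0 h difference was 0.34 log2 units with an adjusted p of 0.101. It also missed the adjusted p without sedentary replicate 1 (0.104), sedentary replicate 2 (0.0690) or trained 0 h replicate 2 (0.0908). In untrained muscle Foxo1 at 0 h was at 1.45 and 1.33 TPM beside the shared library, 0.20 log2 units above sedentary (adjusted p = 0.313; 0.12 and 0.663 without the shared library). From there to 6 h it was higher by 0.48 log2 units (adjusted p = 0.0149), and by 0.55 without the shared library (adjusted p = 0.0174), while the adjusted p was 0.0638 without untrained 0 h replicate 3 and 0.0592 without untrained 6 h replicate 3. In trained muscle the level from 0 h to 6 h differed by 0.05 log2 units (adjusted p = 0.779; 0.00 without the shared library). By 72 h the trained libraries were back at 1.25, 1.35 and 1.16 TPM, 0.49 log2 units under 6 h (adjusted p = 0.0143) and 0.01 from sedentary (adjusted p = 0.982). The difference from 6 h missed the adjusted p without trained 6 h replicate 3 (0.0653) or trained 72 h replicate 3 (0.0607).

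Foxo3, the factor that drives ligase and autophagy genes in atrophy, moved less than Foxo1. It was between 1.99 and 2.15 TPM in sedentary libraries, at 2.48 TPM in the shared 0 h library and at 2.75 and 2.71 TPM in the other trained 0 h libraries. The trained 0 h libraries were all higher, by 0.29 log2 units (SE 0.08, adjusted p = 0.0317; 0.33 and 0.0478 without the shared library). This value lies beside a median of 0.13 log2 units over all tested genes in the same comparison. With median-of-ratios scaling, which centres the genes, it was 0.16 log2 units (adjusted p = 0.165). Leaving out sedentary replicate 1 or 2, or trained 0 h replicate 2 or 3, gave adjusted p of 0.0814 to 0.121. At 6 h the differences were 0.21 (adjusted p = 0.117) in untrained and 0.22 log2 units (adjusted p = 0.0866) in trained muscle.

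Foxo4, the most abundant of the 3 listed FOXO genes, was among the least variable genes between libraries of a group. Its SD was 0.07 log2 units, lower than in all but 2.52% of tested genes. Sedentary libraries held 37.1, 33.6 and 39.0 TPM and trained 6 h libraries 30.3, 33.0 and 28.6 TPM, all below the sedentary ones. The difference was -0.25 log2 units (SE 0.06, adjusted p = 0.0181), a 1.19-fold lower level. Leaving out sedentary replicate 1 or 3, or trained 6 h replicate 1 or 3, gave adjusted p of 0.0629 to 0.0879. At untrained 6 h the 3 libraries were at 33.1 to 37.0 TPM, which overlapped sedentary, with a difference of -0.07 (adjusted p = 0.591). From trained 0 h, at 37.2 to 38.2 TPM, to trained 6 h Foxo4 was lower by 0.30 log2 units (adjusted p = 0.00366; 0.31 and 0.0125 without the shared library). All tested genes had a median of -0.15 in that comparison, and with median-of-ratios scaling the Foxo4 difference was -0.13 (adjusted p = 0.167). The ratio of Foxo4 to Foxo1 TPM was 29.7 ± 3.63 (SD, n = 3) in sedentary, 15.4 ± 1.92 at untrained 6 h and 15.7 ± 2.27 at trained 6 h, and 25.7 ± 0.806 and 26.4 ± 2.18 at 72 h.

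**Figure D2:**
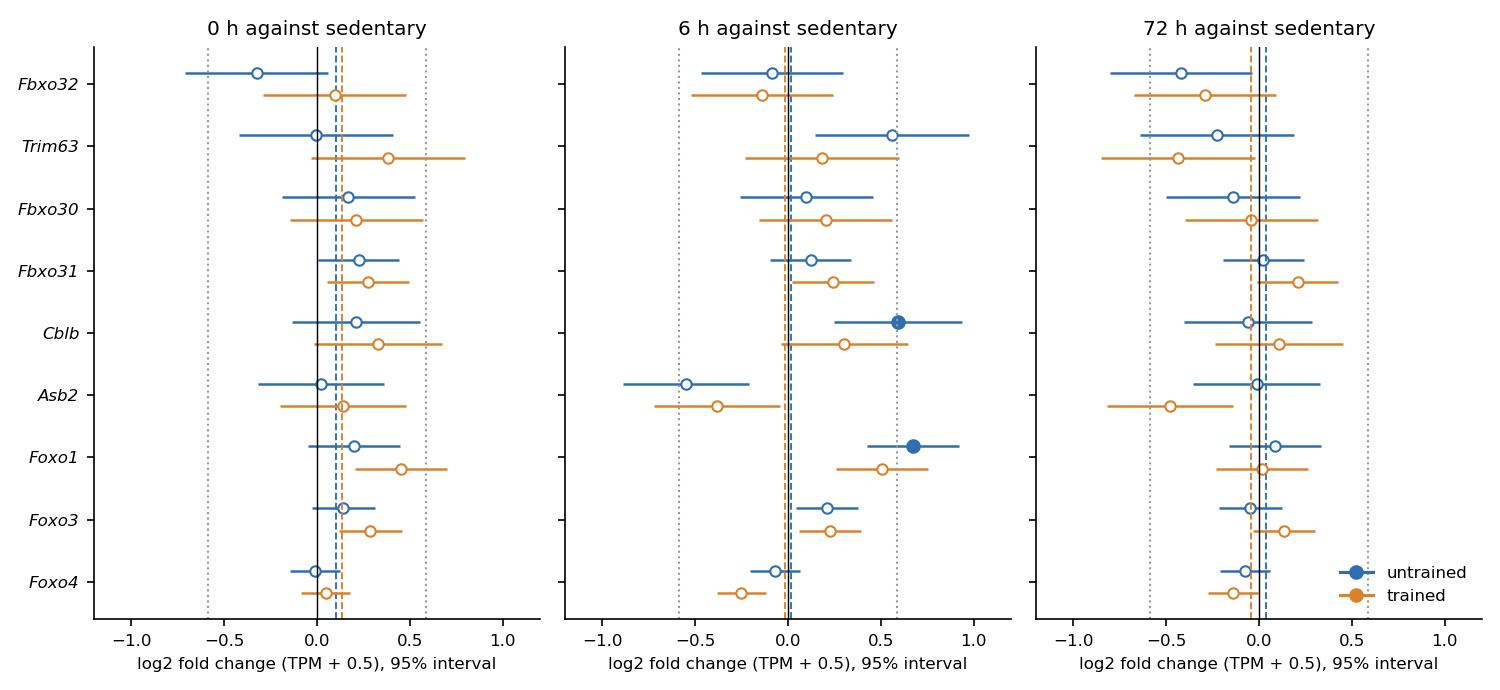
Log2 fold changes of the 9 genes against sedentary muscle with 95% intervals from limma at the 3 times after the bout, in untrained (blue) and trained (orange) mice, 3 libraries a group and the shared library in both 0 h groups. Filled points are called genes (Cblb and Foxo1 at untrained 6 h), dashed lines the median of all tested genes and dotted lines 1.5-fold; at 6 h Asb2 lies at -0.55 in untrained and -0.38 in trained muscle, on the other side of 0 from Foxo1.

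Counted over the list, 2 of the 9 genes were called at untrained 6 h against sedentary, both higher, where 4.42% of tested genes were called and 3.53% called higher. At trained 6 h none was called with limma, beside 3.85% of tested genes, while 5 of the 9 had an unadjusted p below 0.05 beside 24.1% of all genes. Without the fold limit, 3 members passed at untrained 6 h (9.47% of tested genes) and 2 at trained 6 h (10.4%). The libraries of the groups did not overlap for 4 members at untrained 6 h and 5 at trained 6 h, beside 20.4% and 28.9% of tested genes. The median of the 9 was 0.12 and 0.20 log2 units at untrained and trained 6 h, beside 0.01 and -0.01 over all genes. At 0 h no member was called with limma in untrained or trained muscle, beside 3.59% and 3.74% of tested genes, and 1 and 3 of the 9 had an unadjusted p below 0.05, beside 24.2% and 27.2% of tested genes. Without the fold limit Foxo1 and Foxo3 passed at trained 0 h, with and without the shared library, beside 9.37% of tested genes as deposited. Without the shared library, too, no member was called at 0 h against sedentary with limma. All 9 were higher at trained 0 h than in sedentary muscle, as were 76.3% of tested genes, and 3 did not overlap it (29.1% of tested genes).

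At 72 h no member was called with limma in untrained or trained muscle, beside 0.00846% and 0.169% of tested genes, and 1 and 3 of the 9 had an unadjusted p below 0.05, beside 5.77% and 11.7% of tested genes. From 6 h to 72 h in untrained muscle 3 of the 9 were called, Trim63, Cblb and Foxo1, all lower, beside 4.04% of tested genes called and 2.83% called lower. Asb2 was the only other member to pass without the fold limit (9.04% of tested genes): it was higher at 72 h. Foxo3 was lower by 0.26 log2 units (adjusted p = 0.0527). This comparison and that of untrained 6 h with sedentary share the untrained 6 h libraries, so the opposite signs of Cblb and Foxo1 in them are not separate measurements. From 0 h to 6 h no member was called in untrained (4.64% of tested genes) or trained muscle (6.46%), and from 6 h to 72 h none in trained muscle (3.48%). Without the fold limit 2, 2 and 1 members passed in these comparisons, beside 11.7%, 25.1% and 9.21% of tested genes. Limma gave 4, 2 and 2 members an unadjusted p below 0.05 in them, beside 27.1%, 38.6% and 22% of tested genes.

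No member was called between trained and untrained muscle at any of the 3 times after the bout, beside 0%, 2.01% and 0.245% of tested genes. With limma 4, 1 and 2 of the 9 had an unadjusted p below 0.05, beside 4.47%, 18.3% and 15.0% of tested genes. At 0 h, on the 2 libraries of each group that were not shared, all 9 members were higher in trained muscle, as were 63.2% of tested genes, and 6 did not overlap (33.6% of tested genes). Fbxo32 was at 44.9 and 46.1 TPM in trained and at 26.5 and 32.2 TPM in untrained libraries, a difference of 0.63 log2 units with a 95% interval of 0.20 to 1.06. Trim63 was at 103 and 107 TPM against 65.1 and 75.1 TPM, a difference of 0.59 (0.14 to 1.04). Every adjusted p of a member was 1 in limma in this comparison. With the shared library in both groups, the differences of Fbxo32 and Trim63 were 0.42 and 0.39 log2 units.

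At 6 h the 95% intervals of the difference between trained and untrained muscle ran from -0.42 to 0.08 log2 units for Foxo1, from -0.63 to 0.06 for Cblb and from -0.79 to 0.04 for Trim63. Foxo4 was lower in trained muscle by 0.18 log2 units, without overlap (adjusted p = 0.129). At 72 h Foxo3 was higher in trained muscle by 0.18 log2 units, also without overlap (2.29 to 2.35 against 1.83 to 2.14 TPM, adjusted p = 0.293). Foxo1 and Cblb were thus called against sedentary in untrained muscle only, but the difference between the groups did not pass its own test. For Foxo1 the fold limit alone kept trained 6 h from being called, as the adjusted p passed there.

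**Figure D3:**
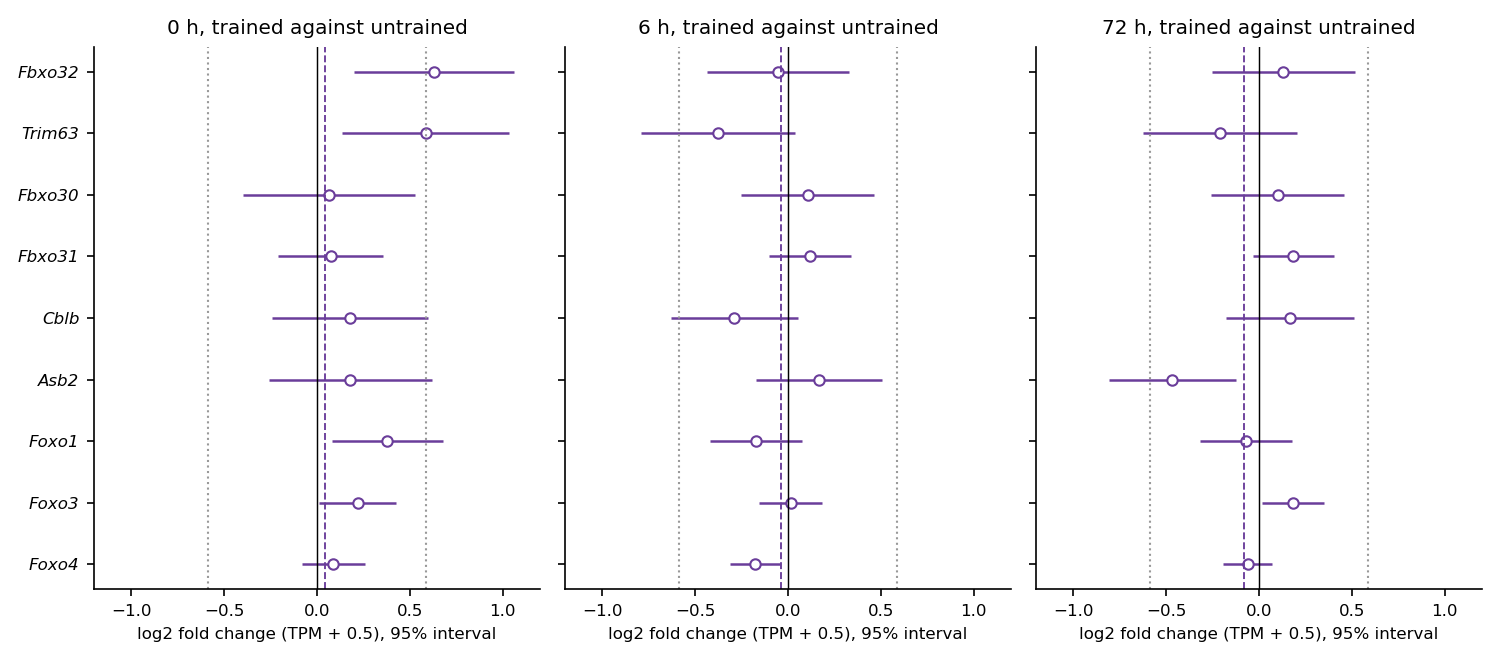
Differences between trained and untrained muscle in log2 fold change with 95% intervals from limma, at 0 h (2 libraries a group, without the shared library) and at 6 h and 72 h (3 libraries a group). No point is filled because no member was called; dashed lines are the median of all tested genes and dotted lines 1.5-fold, and at 72 h Asb2 lies at -0.47.

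Some genes that work with the 9 members changed more than the members did. The list of 22 other muscle ubiquitin ligases and deubiquitinases had 21 members tested, of which 3 rose and none fell at untrained 6 h against sedentary, beside 3.53% of tested genes that rose and 0.888% that fell. Klhl40, a cullin-3 adaptor of the thin filament, went from 29.9 ± 1.57 to 162 ± 38.1 TPM (SD, n = 3), a rise of 2.40 log2 units (adjusted p = 2.19e-07). Its relative Klhl41 rose by 0.88 (adjusted p = 0.000418) and the F-box gene Fbxo40, a ligase subunit for IRS-1, by 0.68 (adjusted p = 0.0367). None of the 21 was called at trained 6 h, and Klhl40 and Klhl41 were lower there than at untrained 6 h, by 2.00 and 0.73 log2 units (adjusted p = 7.6e-06 and 0.00375). None of the 15 genes of the cullin, ubiquitin-activating and conjugating machinery, on which F-box subunits and Asb2 depend, was called with limma in any of the 13 comparisons, and without the fold limit 1 passed at untrained 6 h and 6 from trained 0 h to 6 h, beside 9.47% and 25.1% of tested genes.

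Among 20 genes listed as regulators of FOXO activity or, like Myog, of the ligase genes, 4 rose and none fell in each of the untrained 0 h, trained 0 h and untrained 6 h groups against sedentary. At trained 6 h 3 rose. Of all tested genes 2.97%, 3.39%, 3.53% and 2.41% rose in these comparisons. Without the shared library Irs1, one of the 4 at untrained 0 h, was not called (0.91 log2 units with adjusted p = 0.0388 as deposited, 0.81 and 0.147 without it), while Irs2, Myog and Sgk1 were. At 0 h the largest change was that of Irs2, which couples the insulin receptor to AKT: from 2.03 ± 0.165 TPM to 14.3 ± 1.15 in untrained and 16.9 ± 5.63 TPM in trained muscle (2.55 and 2.74 log2 units, adjusted p = 2.86e-07 and 1.27e-07; 2.51 and 2.80 without the shared library). Myog, a myogenic factor known to activate Fbxo32 and Trim63 after denervation, rose at 0 h by 1.72 in untrained and 2.11 log2 units in trained muscle (adjusted p = 0.000555 and 7.38e-05; 1.47 and 2.05 without the shared library). Sgk1, a kinase that phosphorylates FOXO factors, rose in all of these 4 groups, by 1.11 and 1.30 log2 units at 0 h (1.06 and 1.36 without the shared library) and by 0.77 and 0.79 at 6 h. At 6 h Ppargc1a, a coactivator known to restrain FOXO activity in muscle, went from 3.89 ± 0.739 TPM to 27.1 ± 5.49 in untrained and 38.9 ± 9.75 TPM in trained muscle (2.65 and 3.15 log2 units, adjusted p = 2.78e-07 and 3.97e-07).

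Of 20 genes known as FOXO targets, 19 were tested, and 6 rose and none fell at untrained 6 h, where 3.53% of tested genes rose. They were Ddit4 (1.78 log2 units), an inhibitor of mTORC1, the autophagy gene Gabarapl1 (1.52), the cell-cycle inhibitor Cdkn1a (1.14), Cited2 (0.80), Gadd45a (0.76) and Lpin1 (0.67). At trained 6 h 5 rose, beside 2.41% of tested genes: Ddit4, Cdkn1a, Lpin1, Gabarapl1 and Gadd45a. The median of the 19 was 0.27 and 0.16 log2 units, beside 0.01 and -0.01 over all genes. At 0 h 2.97% of tested genes rose and 0.618% fell in untrained muscle, and 3.39% rose in trained muscle. Of the 19, 2 rose and 1 fell in untrained muscle and 3 rose in trained muscle. Of these, Cited2, which fell by 0.85 on the log2 scale at untrained 0 h (adjusted p = 0.041), and Bcl6, which rose by 1.12 at trained 0 h (adjusted p = 0.0288), were not called without the shared library (-0.84 and 0.92 log2 units, adjusted p = 0.137 and 0.0921). Ddit4 and Cdkn1a rose in both 0 h groups with and without it. Ddit4 rose by 4.10 in untrained and 4.26 log2 units in trained muscle (adjusted p = 3.73e-07 and 2.36e-07; 3.89 and 4.12 without the shared library). In these comparisons Foxo1 and Foxo3 differed by 0.14 to 0.45 as deposited. Foxo4 differed by -0.01 and 0.05 (-0.03 and 0.06 without the shared library). Fbxo32 and Trim63, also known as FOXO targets, were not called in them. The part of FOXO factors in the rise of Ddit4 was not tested, and RNA levels do not show their activity. From 6 h to 72 h in untrained muscle 8 of the 19 fell and none rose, beside 4.04% of tested genes called, led by Pdk4, a kinase that limits glucose oxidation, which fell by 2.57 (adjusted p = 0.0107).

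Among 13 genes for proteins reported as substrates or partners of the ligases, 3 rose at untrained 6 h, beside 3.53% of tested genes. Flnc, the muscle filamin, went from 42.1 ± 1.45 to 266 ± 35.3 TPM (2.64 log2 units, adjusted p = 2.78e-07). Ankrd2, a titin-binding stretch-response protein, rose by 1.84 (adjusted p = 0.000185) and Myod1, a substrate of the Fbxo32 ligase, by 1.49 log2 units (adjusted p = 0.00552). At trained 6 h Flnc alone of the 13 rose (2.41% of tested genes did), by 0.98 (adjusted p = 0.00421), and it was lower than at untrained 6 h by 1.65 log2 units (adjusted p = 0.000125). For Asb2 the difference between trained and untrained muscle at 6 h was 0.17 log2 units with a 95% interval of -0.17 to 0.51. A relation between the levels of Asb2 and Flnc was not tested, and filamin protein was not measured. Flna, another filamin, was higher at 0 h in untrained (0.78 log2 units, adjusted p = 0.0017) and trained muscle (0.73, adjusted p = 0.00275; 0.86 and 0.79 without the shared library), and was at 10.6 ± 1.40 TPM at untrained 6 h, within the range of the sedentary libraries.

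**Figure D4:**
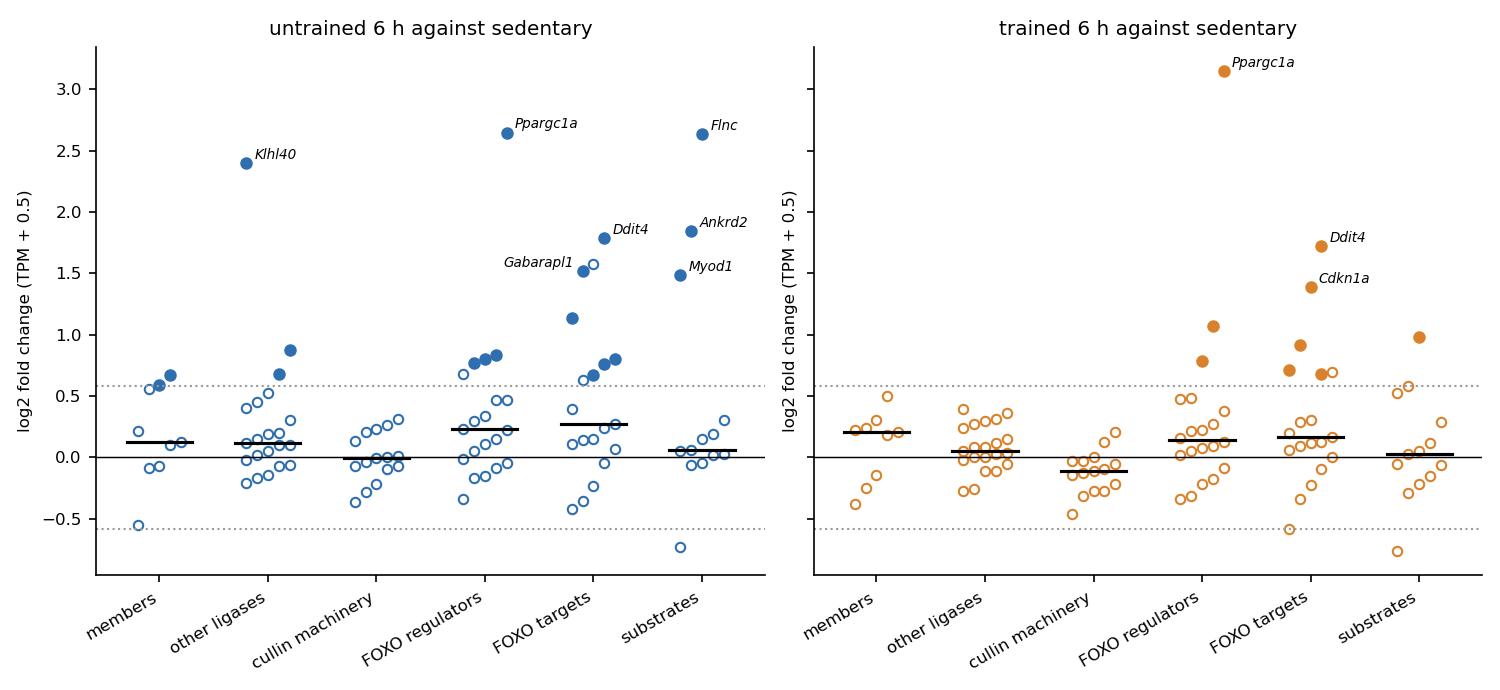
Log2 fold changes against sedentary muscle at 6 h in untrained (left) and trained mice (right) of the 9 members and of 5 lists of related genes; each point is a gene, filled points are called, bars are list medians and dotted lines 1.5-fold. Klhl40 (2.40), Ppargc1a (2.65) and Flnc (2.64) lie far above the members at untrained 6 h, where the members span -0.55 to 0.67.

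Bulk muscle holds other cells besides fibres, and in such samples fewer cells of a type and less RNA per cell cannot be told apart. The 8 myofibre markers summed to 72192 to 107378 TPM in all libraries, in accord with the label. From trained 0 h to 6 h all 8 were lower, with a median of -0.33 log2 units beside -0.15 over all tested genes. None was called, and 7 passed the adjusted p in limma without the fold limit, beside 25.1% of tested genes. In the untrained 6 h group, which carries most of the calls, the 6 slow-fibre markers summed to 169 to 263 TPM, beside 344 to 678 TPM in sedentary libraries. Of the 6 markers 1, Myl3, fell, as did 0.888% of tested genes. In this sum untrained 0 h libraries (188 to 246 TPM) and trained 72 h libraries (205 to 294 TPM) also lay below all sedentary libraries. Macrophage markers summed to 38.3 to 80.4 TPM at untrained 6 h, beside 42.8 to 47.2 TPM in sedentary libraries. Cd68 and Csf1r were higher among the 7 tested of 8 (1.62 and 0.61 log2 units), where 3.53% of tested genes rose. All sums at untrained 0 h (54.0 to 59.6 TPM), trained 0 h (54.0 to 54.4 TPM) and untrained 72 h (61.5 to 66.1 TPM) lay above sedentary. Adipocyte markers summed to 66.2 to 147 TPM at untrained 6 h, beside 50.4 to 67.0 TPM in sedentary libraries. Plin4 was higher among the 6 tested of 7 (0.79 log2 units). This sum was above sedentary in trained muscle at 0 h (70.6 to 143 TPM), 6 h (87.8 to 148 TPM) and 72 h (89.4 to 91.0 TPM). The medians of the 7 fibro-adipogenic, 2 satellite-cell and 5 red-blood-cell markers tested were -0.02, 0.10 and -0.25 log2 units at untrained 6 h. The part of these cells in the changes of Foxo1 and Cblb was not tested. From untrained 6 h to 72 h 3 of the 5 red-blood-cell markers rose, Hbb-bt (0.91 log2 units), Hbb-bs (0.85) and Hba-a1 (0.82), beside 1.2% of tested genes. The sum of the 5 went from 296 to 306 TPM at 6 h to 410 to 805 TPM. Of the 7 fibro-adipogenic markers 2 rose, Col3a1 (1.40) and Lum (0.95), beside the same 1.2%. Of the 6 adipocyte markers tested only Plin4 was called, falling by 0.92 on the log2 scale, where 2.83% of tested genes fell. Of these 6 markers 4 were higher at 72 h, and the list median was 0.54 log2 units. The part of these cells in the falls of Trim63, Cblb and Foxo1 was not tested. The 5 neutrophil markers were each below 1 TPM on average, although none was at 0 in all libraries. The 8 endothelial markers summed to 85.4 to 119 TPM in all libraries. Core clock genes also moved. At untrained 6 h 3 of 12 tested rose, led by Per1 (1.48 log2 units), and 1 fell, beside 3.53% and 0.888% of tested genes. In trained 72 h muscle Per1 rose by 1.81 while Arntl fell by 1.67, where 0.0592% of tested genes rose and 0.11% fell. In trained against untrained muscle at 72 h 2 of the 12 were called higher and 1, Arntl, lower by 1.51. Of all tested genes 0.0592% and 0.186% were called higher and lower there. Hours after the bout and the hour of the day at which mice were taken cannot be told apart. The part of the hour of the day in differences between trained and untrained muscle at 72 h was not tested.

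Across the 20 distinct libraries the members were related to each other to different degrees, given here as a description because the libraries share groups. Pearson's r of log2(TPM + 0.5) was 0.77 for Fbxo31 with Foxo3, 0.73 for Trim63 with Foxo1 and 0.71 for Fbxo32 with Trim63. Foxo1 and Fbxo32 had an r of 0.34, and Asb2 with Cblb gave -0.38, the most negative of the 36 pairs. Of all other tested genes, those nearest to Foxo1 were Nt5dc3 (0.93), Tgm2 (0.92), Gm20412 (0.92), Ppard (0.91), a nuclear receptor for fatty acids, and Cntfr (0.91). Nearest to Trim63 were Atp6v1h (0.89), a subunit of the lysosomal proton pump, Nfatc1 (0.87), a calcineurin-dependent factor, Hexa (0.87), Utp14a (0.85) and Kif24 (0.85). Asb2 was closest to Hexim1 (0.90), Gpc4 (0.89), Mif4gd (0.89), Amigo1 (0.88) and Gramd4 (0.88). For Foxo3 the highest values were those of Mapkapk3 (0.83), Sec24a (0.83), Mef2d (0.83), Sorbs3 (0.81) and Glul (0.81). Fbxo32 had weaker neighbours, Tor1aip1 (0.82), its antisense gene Gm15943 (0.81), Ap3b1 (0.75), Zranb1 (0.73) and Nkapd1 (0.72).

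In the GRCm39 build the 9 genes lie apart from each other, on 8 chromosomes: Fbxo32 at chr15:58039275-58078741, Trim63 at chr4:134042393-134056948, Fbxo30 at chr10:11156770-11173806, Fbxo31 at chr8:122276177-122305642, Cblb at chr16:51851588-52028729, Asb2 at chr12:103283687-103334012, Foxo1 at chr3:52175757-52260642, Foxo3 at chr10:42057837-42154007 and Foxo4 at chrX:100298073-100304479. Their promoters, taken as 250 bases before to 50 bases after the start of the canonical transcript, were searched on both strands for the FOXO motif GTAAACA and for the insulin response motif CAAAACAA. The FOXO motif was found in 1 of 9 members, Trim63, and in 3.15% of 21751 promoters, and the insulin response motif in 1 of 9, Foxo4, and in 3.07%. The 2 sites are shown with the motif in capitals because they are the only matches among the members. A match is a description of the letters, and binding was not measured here.
Trim63, plus strand, chr4:134042228-134042252, FOXO motif read on the opposite strand: gtctgttctTGTTTACgacccccac
Foxo4, plus strand, chrX:100297823-100297847, insulin response motif: tggagCAAAACAAaagggaaacccg
Counted from the transcript start, the Trim63 motif lies at -156 and the Foxo4 motif at -245. No match was found in the window of Fbxo32 or of the other 6 members.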

How the data were processed

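Quadriceps RNA libraries (TruSeq v2, unstranded, paired-end) were mapped by the authors to GRCm39 with STAR 2.7.9 and quantified with salmon 1.5.0, and the deposited TPM table was used as given. The annotation release was not given in the sources used here. The deposited table held no other columns of samples. For 11819 genes that averaged 1 TPM or more, limma 3.58.1 (R 4.3.3) fitted log2(TPM + 0.5) in 1 model of the 7 groups (14 residual degrees of freedom, trended variance), with Benjamini-Hochberg adjustment in each of 13 comparisons. Trained against untrained 0 h was fitted without the shared library (12 residual degrees of freedom). The fit was tested on simulated data. Coordinates and promoters came from the GENCODE annotation and genome of GRCm39, in which 51144 of 53738 symbols were found. TPM keep no depth, so precision rests on the libraries alone. Alternatives covered pseudocounts of 0.1 and 1 TPM, filters, scalings, only the groups compared, the fold limit and single libraries left out. The members and gene lists were chosen with earlier results of these data known. Named genes were the members, up to 3 called genes a list and comparison in order of size, and the 5 genes nearest to 5 members; further genes named (Irs1, Klhl41 against untrained 6 h, Cited2 at 6 h, Gadd45a, Lpin1, Sgk1, Csf1r, Flna at 6 h) were added after their values were seen.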

Additional observations from a re-analysis of the deposited data

How the results depend on the processing

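The number of members called was 0 under every alternative for untrained 0 h, untrained 72 h and trained 72 h against sedentary, and for trained against untrained muscle at each of the 3 times. At untrained 6 h against sedentary it was 2, and became 0 with a pseudocount of 1 TPM, 1 without a filter, 0 with a mean of at least 5 TPM (which leaves Foxo1 and Cblb untested), 1 with median-of-ratios scaling and 1 with only the groups compared; leaving out a library gave 1 to 3. From untrained 6 h to 72 h it was 3, and 1 with a pseudocount of 1 TPM, 1 with a mean of at least 5 TPM and 1 with only the groups compared, and leaving out a library gave 0 to 3, with 0 without untrained 72 h replicate 2. From untrained 0 h to 6 h it was 0, and 1 with median-of-ratios scaling, 2 with TPM rescaled without the mitochondrial genome and the top 10 genes, 2 without the fold limit and 1 without the shared library; single libraries left out gave 0 to 1. At trained 6 h against sedentary 0 became 1 with a pseudocount of 0.1 TPM, 1 with rescaling and 2 without the fold limit, at trained 0 h 2 without the fold limit, and in both leaving out a library gave 0 to 0. From trained 0 h to 6 h 0 became 2 without the fold limit, and 0 to 1 without single libraries. From trained 6 h to 72 h 0 became 1 with a pseudocount of 0.1 TPM, 1 with only the groups compared and 1 without the fold limit, and 0 to 0 without single libraries. None of the member differences that passed the adjusted p reversed under the alternatives run; beyond what the settings themselves remove, the cause was not tested.

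Over the alternatives the adjusted p ran from 0.000801 to 0.0497 for Foxo1 and from 0.0196 to 0.177 for Cblb at untrained 6 h, and from 0.00464 to 0.211 for Trim63, 0.0126 to 0.130 for Cblb and 0.00171 to 0.0387 for Foxo1 from untrained 6 h to 72 h. Scaling moved the split of calls over all genes: from trained 0 h to 6 h 179 rose and 585 fell as deposited, and 312 and 341 with median-of-ratios scaling, which shifts the median of all genes by 0.15 there; at untrained 6 h against sedentary 417 and 105 became 412 and 231 with rescaling.

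Replicate numbers gave no sign of pairing: deviations from the group means correlated at -0.12 to 0.13 (median 0.02, 62 pairs) for the same number and at -0.38 to 0.25 (126 pairs) for different numbers. The identical pair was left out, while the other pairs between the 0 h groups were kept. The extremes -0.38, 0.25 and 0.13 came from those pairs, whose group means share a library. With the replicate number as a block, 2 members were called at untrained 6 h, 3 from untrained 6 h to 72 h and 0 in the other 11 comparisons, as without it.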
